A study of Mus musculus with 4 samples.

Results

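Live stromal vascular cells from adipose tissue of mice labelled PPARG null were parted by green fluorescence, and RNA of the GFP+ cells was set against RNA of the GFP- cells on Illumina Mouse-6 V2 BeadChip arrays. The comparison took 3 of the 4 arrays of the series by their labels alone, null GFP+ 1 and 3 against null GFP- 3. Both sides carry the same genotype label, Black 6 background, tissue and age of 2 months, so they differ by label only in the gate. The study itself describes its mouse lines as of a mixed background, not Black 6 alone. The remaining array, het GFP+ 2, comes from cells of mice labelled PPARG het and is given below only as a point of orientation. In the AdipoTrak system of the study, a tetracycline transactivator placed at the Pparg locus drives a histone-bound GFP, and the null allele is a floxed Pparg removed either by Sox2-Cre throughout the embryo or by the AdipoTrak driver within the fat lineage. The labels do not say which Cre was used, and they do not say whether the arrays came from separate mice or pools, so that the p-values measure only the spread between these arrays. Of 45281 probes on the array, 17379 reached a detection p below 0.01 on any array, and the brightest of them for each gene gave 9975 genes.

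PPARγ is the nuclear receptor that, paired with RXR, switches on the genes of fat cell formation and lipid storage. It is also made by capillary endothelium of fat and by some macrophages. The stromal vascular fraction that remains after the floating fat cells are removed holds adipose progenitors and fibroblasts, endothelial and mural cells of the vessels, and leukocytes such as macrophages, mast cells and neutrophils. A gate on GFP therefore divides a mixture of cell types, and these arrays ask which transcripts fell on either side of it.

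The targeted gene runs against the genotype label. Pparg had intensities of 3217 and 2479 on the null GFP+ arrays, against 209 on the null GFP- array. Both null GFP+ arrays were far above the null GFP- array and above the het GFP+ array, which read 188. The log2 difference between null GFP+ and null GFP- cells was 4.55 (standard error, SE, 0.31, limma adjusted p = 0.0118), and a dimmer Pparg probe read 495 and 363 in null GFP+ cells against 101 in null GFP- cells. The GFP reporter is driven from the same locus, and the values are given as a check of the labels. Whether either probe falls inside the deleted exons is not known here. Directions below go by label, so null GFP+ and null GFP- stand for libraries labelled so.

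The authors' intensities share a single distribution with a median of 120.2, and a reading under 154 was not well above background. Intensities below are those deposited. Log2 differences were taken after a background averaging 108 had been removed, so they are larger than the ratios of the intensities. Where one side was not well above background, "at least N-fold" is the ratio of the deposited intensities with the dim side set to 154 or to its own reading, whichever is higher. For the 199 called genes with such a bound, the bound after background correction was 1.15 to 2.47 times as large. The 3 null arrays read Xist at 2559 and 2371 in null GFP+ cells and 1440 in null GFP- cells, and the Y-linked Eif2s3y at 408 and 252 in null GFP+ cells and 412 in null GFP- cells. Transcripts of both sexes were thus present on each side of the gate. On the het GFP+ array the genes called below lay nearer to the null GFP- array than to the null GFP+ arrays for 124 of 130 called higher and 234 of 263 called lower. For these called genes, its gate label thus goes with null GFP+ and its values mostly do not. They were picked as differing between the null GFP+ and null GFP- arrays, and the like count over all genes was not made. The het GFP+ array read Xist at 100, under the detection level, and Eif2s3y at 729. With 1 array on the GFP- side, its spread was taken to equal that of the null GFP+ arrays, and so few arrays limit the precision.

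Of 9975 genes, 130 were higher in null GFP+ cells (1.30% of those tested) and 263 were lower (2.64%) at an adjusted p under 0.05 from limma. These shares are the background for the count of every list below. Whether the count of any list exceeds them was not tested. Log2 differences of the called genes ran from 1.66 to 6.59 (median 2.45) above and from -8.31 to -1.65 (median -2.64) below, while the median over all genes was 0.02. Counted without a test, 377 genes (3.78%) lay over 2-fold above the null GFP- array on both null GFP+ arrays and 594 (5.95%) over 2-fold below on both. Every gene called by limma was among them. The test uses the same arrays and passes only large differences that are alike on both, so this overlap is no separate support. Only 2 genes were over 2-fold above on one null GFP+ array and over 2-fold below on the other. Of the 263 genes called lower, 143 were not well above background on either null GFP+ array, 24 were above it on 1 of them, and 96 on both. Of the 130 genes called higher, 56 were not well above background on the null GFP- array. Because fewer cells of a type and less RNA per cell give the same reading in bulk samples, the values below cannot tell them apart. With no filter on dim probes, where the adjustment ran over all 45281 probes, limma called 0 genes in either direction, with 1179 higher and 1446 lower at an unadjusted p under 0.05.

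**Figure D1:**
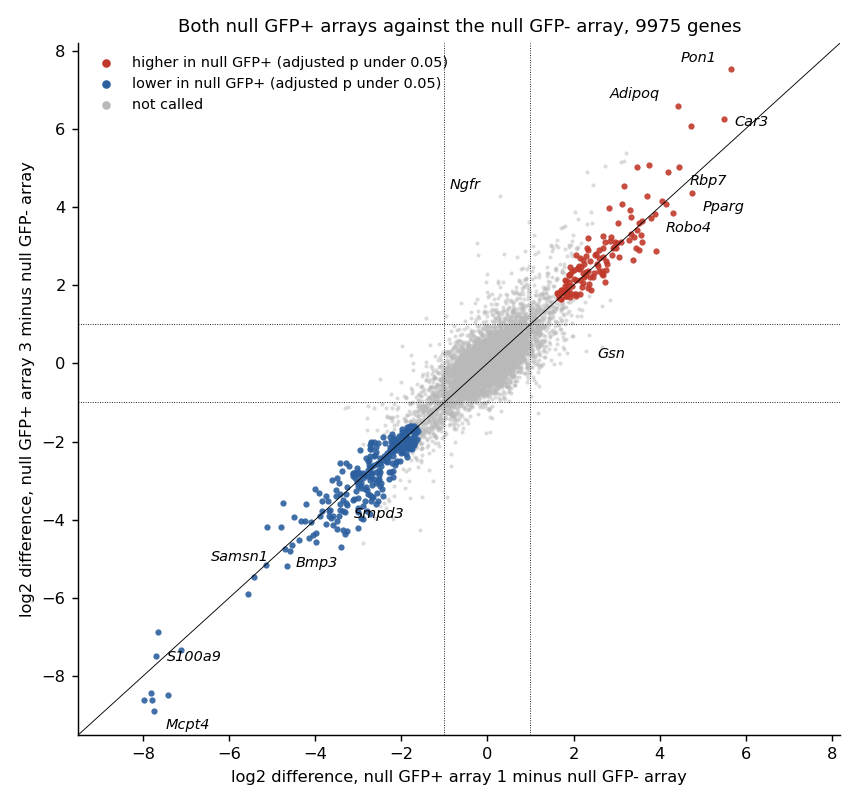
Log2 difference of each null GFP+ array from the null GFP- array for 9975 genes, array 1 on the horizontal and array 3 on the vertical axis, with the 130 genes called higher in red, the 263 called lower in blue and lines at 2-fold. Both axes subtract the same null GFP- array, and the called genes lie beyond 2-fold on both.

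Transcripts of mast cells, tissue leukocytes that store proteases and histamine in granules, were lower in null GFP+ cells. Of 15 mast cell genes tested, 13 were lower and 0 higher, against 2.64% of all genes lower, and the median log2 difference of the list was -4.15. Mcpt4, a chymase, read 184 and 132 on the null GFP+ arrays against 19475 on the null GFP- array, a log2 difference of -8.31 (SE 0.52, limma adjusted p = 0.0113) that was -6.97 without background correction. Cma1, another gene of the chymase family, read 162 and 137 in null GFP+ cells against 17583 in null GFP- cells. Cpa3, the mast cell carboxypeptidase, read 169 and 135 in null GFP+ cells against 17212 in null GFP- cells. For these 3 genes only 1 of the null GFP+ arrays was above background, while the null GFP- array was far above it. The tryptase gene Tpsb2 had 134 and 111 in null GFP+ cells and 9681 in null GFP- cells, at least 62.7-fold lower (limma adjusted p = 0.0107). Mrgprb2, the receptor through which mast cells respond to basic secretagogues, was at least 7.49-fold lower (limma adjusted p = 0.0109). Beyond the proteases, and chosen after their values were seen, Kit, the stem cell factor receptor on which mast cells depend, had 138 and 162 in null GFP+ cells against 1372 in null GFP- cells. Hdc, which makes histamine, had 318 and 602 in null GFP+ cells against 6111 in null GFP- cells, and so stayed above background on both sides. Hs3st1 and Hpgds did not pass the test.

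Of 15 neutrophil genes tested, 10 were lower and 1 higher, with a median log2 difference of -3.81. S100a9, a subunit of calprotectin, read 116 and 125 in null GFP+ cells against 6348 in null GFP- cells, at least 41.1-fold lower (limma adjusted p = 0.0107). Its partner S100a8 read 151 and 193 in null GFP+ cells against 11799 in null GFP- cells, a log2 difference of -7.26 (SE 0.41, limma adjusted p = 0.0109). Retnlg, a resistin-like protein of neutrophils, was at least 26.2-fold lower, Ltf, the iron-binding lactoferrin, at least 14.3-fold and Ngp, a neutrophilic granule protein, at least 6.55-fold. The null GFP+ arrays therefore held none of these 5 transcripts well above background, except S100a8 on array 3. The granule enzyme gene Mpo, which belongs to immature neutrophils and was chosen after its values were seen, did not pass, with 172 and 197 in null GFP+ cells against 292 in null GFP- cells. The member that was higher, Hp, named after its value was seen, encodes haptoglobin, which fat cells also make. It read 1611 and 2163 in null GFP+ cells against 403 in null GFP- cells.

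Macrophages are the main resident leukocytes of fat. Of 30 macrophage genes tested, 10 were lower, 0 were higher and 20 did not pass, with a median log2 difference of -2.10 that was -1.71 on null GFP+ array 1 and -2.84 on array 3. The summed intensity of the list was 72595 and 73522 in null GFP+ cells and 77166 in null GFP- cells. Lpl, lipoprotein lipase, which fat cells share and which was chosen after its values were seen, made up a large part of these sums. It had 36121 and 40207 in null GFP+ cells and 22920 in null GFP- cells, so the near-equal sums do not speak for the other members. The 4 members with the smallest p-values are markers of resident tissue macrophages. Clec10a, a galactose-binding lectin, was at least 5.82-fold lower, with 130 and 125 in null GFP+ cells against 898 in null GFP- cells (limma adjusted p = 0.0113). Cd163, the haemoglobin scavenger receptor, read 129 and 126 in null GFP+ cells against 465 in null GFP- cells. Folr2, a folate receptor, read 253 and 208 in null GFP+ cells against 1839 in null GFP- cells, and Cbr2, a carbonyl reductase, 195 and 208 against 1416. Folr2 and Cbr2 thus kept a signal above background in null GFP+ cells. The arrays disagreed on lysozyme, where Lyz2, chosen after its values were seen, read 2083 on null GFP+ array 1 and 452 on array 3 against 3936 in null GFP- cells, and it did not pass (limma adjusted p = 0.421).

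Genes of antigen presentation and of leukocytes in general were lower too. Of 13 dendritic cell and MHC class II genes tested, 8 were lower and 0 higher, with a median log2 difference of -2.12. H2-Aa, the alpha chain of a class II molecule, read 219 and 185 in null GFP+ cells against 965 in null GFP- cells, a log2 difference of -3.01 (SE 0.32, limma adjusted p = 0.0198). H2-Eb1, a class II beta chain, read 524 and 408 in null GFP+ cells against 2621 in null GFP- cells. Cd86, a costimulatory ligand, was at least 2.20-fold lower. Of 16 pan-leukocyte genes tested, 15 were lower and 0 higher, with a median of -3.07. Rac2, the blood cell Rac GTPase, was at least 4.59-fold lower, with 130 and 117 in null GFP+ cells against 709 in null GFP- cells (limma adjusted p = 0.0122). The phosphatase gene Ptpn6 read 203 and 178 in null GFP+ cells against 1152 in null GFP- cells, and the actin regulator Was 158 and 146 against 729. Over the 8 leukocyte lists, counting each gene once, 61 of 101 genes tested were lower and 1 was higher. A gene was tested if any array detected it, so genes dim in null GFP+ cells entered mainly through the other arrays. Genes dim everywhere dropped out, which raises these shares. Of 20 mast cell genes with a probe, 15 were tested, and 7 of these were not well above background on either null GFP+ array. For pan-leukocyte genes the numbers were 20, 16 and 8. Among 6 eosinophil and basophil genes 4 were lower, led by the basophil protease gene Prss34 at least 4.75-fold and the cytokine gene Il4 at least 3.65-fold. In the T and NK cell list 0 of 4 genes tested were called (1 at an unadjusted p under 0.05), and of the B and plasma cell list 1 of 2, the tetraspanin gene Cd37.

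**Figure D2:**
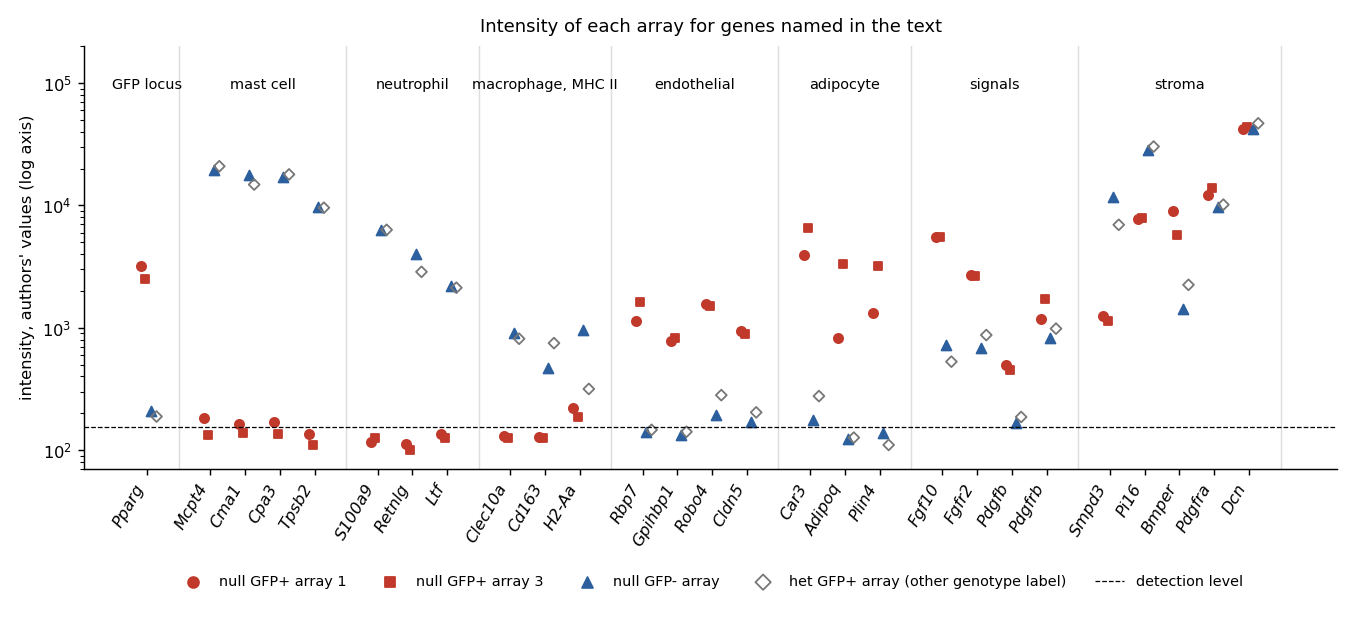
Intensity of each array on a log axis for 27 genes of the text, null GFP+ arrays 1 and 3 in red, the null GFP- array in blue and the het GFP+ array as open diamonds, with the detection level of 154 as a dashed line. Mast cell and neutrophil genes lie at the detection level on both null GFP+ arrays and up to 19475 on the null GFP- array, whereas endothelial and adipocyte genes lie the other way and Dcn is bright on all arrays.

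Promoters of 7 called genes that held a motif are shown as the stretch from 250 bases before to 50 bases after the transcription start, taken from RefSeq on GRCm38.p6. An entry was found for 86 genes called higher and 206 called lower. Motifs were searched on both strands, 9 in all, and those given here were chosen after they had been counted. Gene shares count a gene if any of its promoters held the motif, whereas the share of all promoters counts each promoter. Genes not called are therefore the like measure. GAGGAAGT is the core bound by PU.1, the ETS factor of myeloid and B cells. It was present for 28 of 206 genes called lower (13.6%), 0 of 86 called higher and 280 of 7770 not called (3.60%), against 3.20% of all 32851 promoters in the table. It shares all but its first letter with the general ETS core CAGGAAGT. That core was present for 14 genes called lower (6.80%), 4 called higher (4.65%) and 310 not called (3.99%), against 3.33% of all promoters. The RUNX core TGTGGT was present for 7 of the 10 mast cell genes called lower that had an entry. It was present for 49 of 206 genes called lower (23.8%), 8 of 86 called higher (9.30%) and 1141 of 7770 not called (14.7%), against 16.8% of all promoters. A higher share among genes called lower was not particular to these motifs. The GATA form AGATAA was present for 13.6% called lower and 7.52% not called, and TGATAA for 9.71% and 5.25%. For the TATA box TATAAA the shares were 17.0% and 9.25%, with 16.3% of genes called higher. TTGCGCAA was present for 0 of 206 genes called lower. The PU.1 core was present for 0 of the 10 mast cell genes. A direct repeat of AGGTCA with a spacing of 1 base is the element bound by PPARγ and RXR. It was present for 0 of 86 genes called higher and 2 of 7770 not called (0.0257%), against 0.0396% of all promoters. A match says only that these letters lie in this window. The promoters below are those of mast cell genes with the RUNX core, of Samsn1, S100a8 and Vav1 with the PU.1 core, and of Lep. Lep was the 1 gene called higher with the C/EBP palindrome TTGCGCAA, which reads alike on both strands. The palindrome was present for 0.322% of genes not called and in 0.183% of all promoters. Capitals mark the motif on either strand, so that ACCACA is TGTGGT and ACTTCCTC is GAGGAAGT on the other strand.
Mcpt4 (chr14:56062261-56062560, minus strand): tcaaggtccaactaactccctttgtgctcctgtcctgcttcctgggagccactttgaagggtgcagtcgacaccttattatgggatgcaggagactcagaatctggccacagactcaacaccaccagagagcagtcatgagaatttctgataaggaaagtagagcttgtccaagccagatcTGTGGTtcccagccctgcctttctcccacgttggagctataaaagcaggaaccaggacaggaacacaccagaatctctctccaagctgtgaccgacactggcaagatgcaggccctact
Cma1 (chr14:55944626-55944925, minus strand): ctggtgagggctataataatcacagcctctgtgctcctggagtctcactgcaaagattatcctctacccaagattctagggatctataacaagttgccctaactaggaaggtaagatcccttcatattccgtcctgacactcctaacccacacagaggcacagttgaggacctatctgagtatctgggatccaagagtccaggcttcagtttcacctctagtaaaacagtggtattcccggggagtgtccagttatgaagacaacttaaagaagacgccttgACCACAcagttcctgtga
Cpa3 (chr3:20242132-20242431, minus strand): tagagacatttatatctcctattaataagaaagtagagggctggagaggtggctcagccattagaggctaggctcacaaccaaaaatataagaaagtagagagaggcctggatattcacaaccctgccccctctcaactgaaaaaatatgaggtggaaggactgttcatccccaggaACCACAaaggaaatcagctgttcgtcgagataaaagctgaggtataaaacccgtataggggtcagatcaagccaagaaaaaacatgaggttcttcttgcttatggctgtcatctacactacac
Samsn1 (chr16:75909217-75909516, minus strand): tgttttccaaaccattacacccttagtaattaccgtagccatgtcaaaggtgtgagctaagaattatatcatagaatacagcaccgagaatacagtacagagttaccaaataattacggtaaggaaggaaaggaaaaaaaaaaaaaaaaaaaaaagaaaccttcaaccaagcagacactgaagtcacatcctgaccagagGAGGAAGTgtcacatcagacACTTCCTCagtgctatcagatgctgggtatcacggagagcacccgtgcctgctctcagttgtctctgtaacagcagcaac
S100a8 (chr3:90668821-90669120, plus strand): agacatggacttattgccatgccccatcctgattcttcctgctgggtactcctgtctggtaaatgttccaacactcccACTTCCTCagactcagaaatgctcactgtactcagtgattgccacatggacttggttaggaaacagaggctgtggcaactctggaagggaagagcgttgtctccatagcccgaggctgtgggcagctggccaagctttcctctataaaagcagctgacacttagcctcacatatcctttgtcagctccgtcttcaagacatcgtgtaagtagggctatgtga
Vav1 (chr17:57278850-57279149, plus strand): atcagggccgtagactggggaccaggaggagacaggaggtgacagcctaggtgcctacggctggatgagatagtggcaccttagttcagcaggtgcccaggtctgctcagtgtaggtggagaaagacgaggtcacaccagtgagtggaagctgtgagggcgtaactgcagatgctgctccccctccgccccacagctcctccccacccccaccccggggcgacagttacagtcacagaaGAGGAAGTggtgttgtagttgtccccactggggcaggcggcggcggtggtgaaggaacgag
Lep (chr6:29059971-29060270, plus strand): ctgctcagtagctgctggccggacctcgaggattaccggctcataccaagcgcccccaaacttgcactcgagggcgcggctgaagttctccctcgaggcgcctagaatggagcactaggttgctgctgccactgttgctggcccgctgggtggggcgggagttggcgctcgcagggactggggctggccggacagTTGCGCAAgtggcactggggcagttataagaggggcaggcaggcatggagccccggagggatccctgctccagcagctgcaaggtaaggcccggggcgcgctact

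Samsn1, an adaptor protein of haematopoietic cells, carried the PU.1 core on both strands, 50 and 30 bases before the start, and read 141 and 122 in null GFP+ cells against 1312 in null GFP- cells, at least 8.50-fold lower (limma adjusted p = 0.0118). Vav1, a signalling protein downstream of immune receptors, carried it 11 bases before the start and was at least 2.86-fold lower, with 136 and 119 in null GFP+ cells against 442 in null GFP- cells. In S100a8 it lay 172 bases before the start. Sla, a Src-like adaptor of lymphocytes, was at least 5.92-fold lower.

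**Figure D3:**
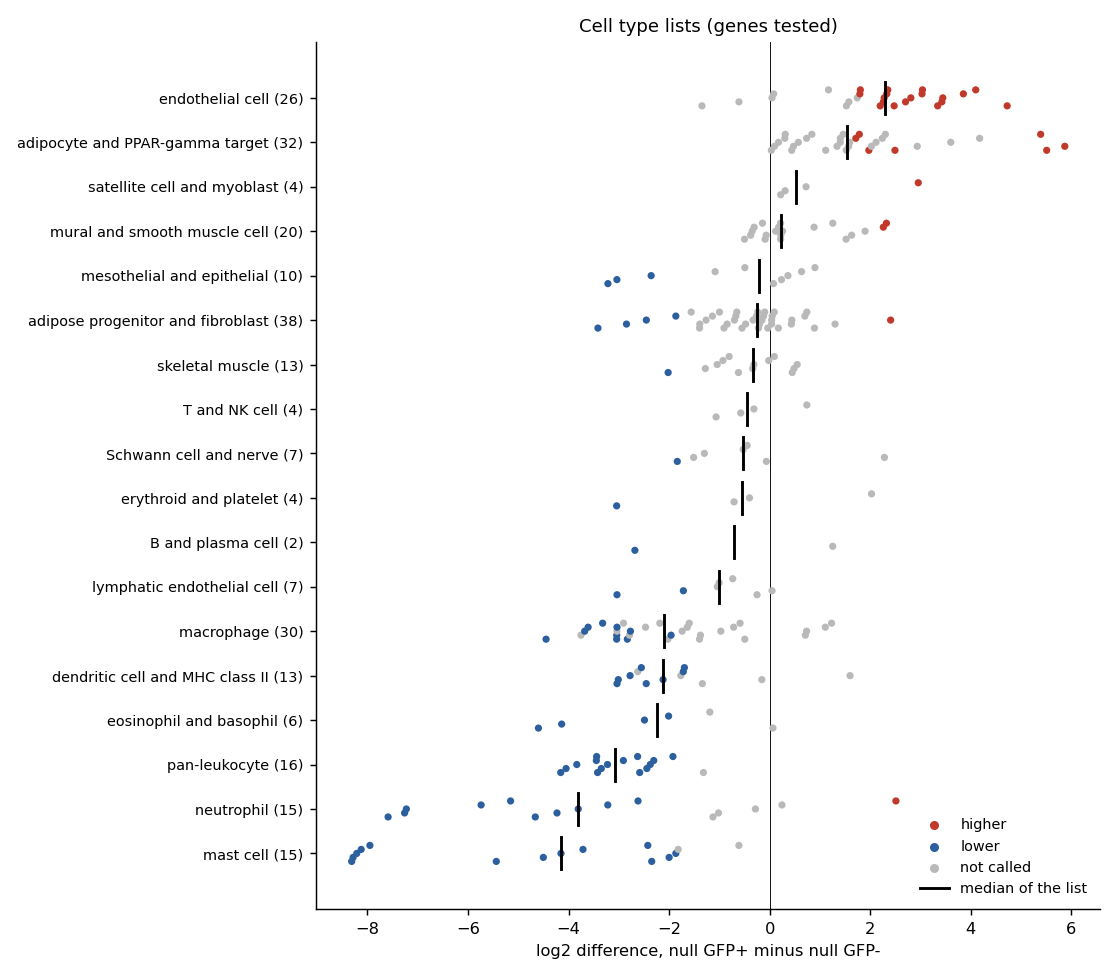
Log2 difference between null GFP+ and null GFP- cells for each tested gene of 18 cell type lists, ordered by the list median (black bar), with genes called higher in red, lower in blue and not called in grey. The mast cell median is -4.15 at the bottom and the endothelial median is 2.30 at the top.

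Endothelial genes were higher in null GFP+ cells. Of 26 tested, 18 were higher and 0 lower, against 1.30% of all genes higher, with a median log2 difference of 2.30 that was nearly the same on array 1 (2.35) and array 3 (2.29). Rbp7, a retinoid-binding protein of fat capillaries, read 1124 and 1626 in null GFP+ cells against 140 in null GFP- cells, at least 8.76-fold higher (limma adjusted p = 0.0122). Gpihbp1, which carries lipoprotein lipase to the capillary lumen, read 785 and 831 in null GFP+ cells against 133 in null GFP- cells, at least 5.23-fold higher (limma adjusted p = 0.0118). Neither gene was well above background in null GFP- cells. Of the list, 32 genes had a probe, and 7 of the 26 tested were not well above background in null GFP- cells. Robo4, a guidance receptor of endothelium, read 1577 and 1493 in null GFP+ cells against 192 in null GFP- cells, a log2 difference of 3.85 (SE 0.27, limma adjusted p = 0.0118), although 2 further probes of Robo4 were at or under the detection level on all 3 arrays and did not pass. Cldn5, the claudin of endothelial tight junctions, read 935 and 894 in null GFP+ cells against 168 in null GFP- cells. The junction genes Cdh5 and Pecam1, both in wide use as vessel markers, had log2 differences of 2.81 and 1.80 (SE 0.29 and 0.28), with 650 and 762 for Cdh5 in null GFP+ cells against 180 in null GFP- cells, and 507 and 549 for Pecam1 against 218. Flt1, a receptor of VEGF, read 1262 and 1285 in null GFP+ cells against 274 in null GFP- cells.

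Other endothelial genes did not pass. The receptor gene Tek read 3061 and 2097 in null GFP+ cells and 3815 in null GFP- cells, and Ramp2, a receptor-modifying protein of adrenomedullin signalling, 13025 and 10546 against 11079. Vwf, the von Willebrand factor gene, had 326 and 408 in null GFP+ cells against 183 in null GFP- cells and did not pass (limma adjusted p = 0.0824). Tek and Ramp2 were chosen after their values were seen, as genes bright on every array. Of 7 lymphatic endothelial genes tested, 0 were higher and 2 were lower. Lyve1, a hyaluronan receptor that macrophages share, was at least 2.39-fold lower and the chemokine gene Ccl21a had 173 and 167 in null GFP+ cells against 347 in null GFP- cells.

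Genes of fat cells and PPARγ targets were higher in null GFP+ cells, with 7 of 32 tested called higher, 0 lower and a median log2 difference of 1.55. Car3, a carbonic anhydrase abundant in fat cells, read 3920 and 6566 in null GFP+ cells against 178 in null GFP- cells, a log2 difference of 5.87 (SE 0.40, limma adjusted p = 0.0118). Adipoq, which encodes adiponectin, read 819 and 3345 in null GFP+ cells against 122 in null GFP- cells, at least 10.7-fold higher (limma adjusted p = 0.0453). Plin4, a lipid droplet coat protein, read 1311 and 3171 in null GFP+ cells against 138 in null GFP- cells, at least 13.2-fold higher (limma adjusted p = 0.0200). Aqp7, the glycerol channel, was at least 1.63-fold higher, and Lep, the leptin gene, at least 1.28-fold. Angptl4, an inhibitor of lipoprotein lipase and a PPAR target, was bright on both sides, with 15705 and 17427 in null GFP+ cells against 5103 in null GFP- cells. Plin2, another droplet coat protein, read 1795 and 1633 in null GFP+ cells against 562 in null GFP- cells.

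The null GFP+ arrays differed from each other on these genes, though not on these alone. Array 3 exceeded array 1 for 25 of the 32, by a median log2 difference of 0.73 against 0.02 over all genes. It also did so for 13 of 13 skeletal muscle genes and 20 of 24 cell cycle genes, with medians of 0.36 and 0.42. Over all lists, counting each gene once, array 3 was higher for 375 of 704 genes and lower for 326. Adipoq, Plin4 and Car3 were higher on array 3, while Lep and Aqp7 lay close together. Cidec, a protein that fuses lipid droplets and was chosen after its values were seen, read 305 and 937 in null GFP+ cells against 96 in null GFP- cells and did not pass (limma adjusted p = 0.0762). Enzymes of fatty acid synthesis did not pass. Fasn, chosen after its values were seen, read 149 and 163 in null GFP+ cells against 154 in null GFP- cells, and Scd1, likewise, 3139 and 4271 against 3426. Of 44 genes of this list with a probe, 32 were tested, and the null GFP- array was not well above background for 15 of them.

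**Figure D4:**
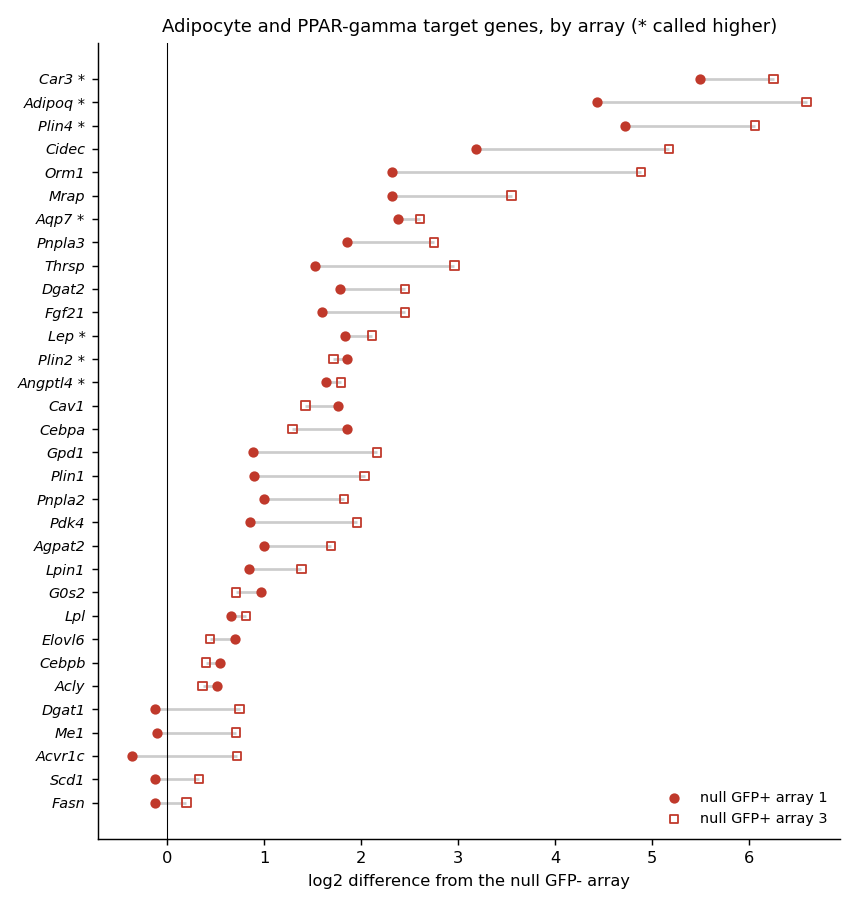
Log2 difference from the null GFP- array for 32 adipocyte and PPARγ target genes, with null GFP+ array 1 as filled circles and array 3 as open squares, ordered by the mean, and asterisks on the 7 called higher. Array 3 lies to the right of array 1 for 25 of the 32 genes.

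Stromal genes were bright on both sides of the gate. Of 38 adipose progenitor and fibroblast genes tested, 4 were lower, 1 higher and 33 uncalled, the median log2 difference was -0.25, and all 38 were above background on the 3 arrays. Pdgfra, the receptor that marks adipose progenitors, read 12199 and 13869 in null GFP+ cells and 9667 in null GFP- cells. Dcn, the proteoglycan decorin and chosen after its values were seen as a bright fibroblast gene, read 42417 and 44000 in null GFP+ cells and 42016 in null GFP- cells. The genes lower in null GFP+ cells included markers of an early progenitor state. Pi16, a peptidase inhibitor of that state, read 7689 and 7894 in null GFP+ cells against 28139 in null GFP- cells, a log2 difference of -1.87 (SE 0.27, limma adjusted p = 0.0378). Smpd3, a neutral sphingomyelinase, read 1243 and 1133 in null GFP+ cells against 11756 in null GFP- cells, a log2 difference of -3.41 (SE 0.28, limma adjusted p = 0.0138). Clec11a, a secreted osteogenic growth factor, read 848 and 1161 in null GFP+ cells against 5010 in null GFP- cells, and Sfrp4, a Wnt antagonist, 195 and 179 against 770. Dpp4, chosen after its values were seen because it marks the same state as Pi16, read 7141 and 4017 in null GFP+ cells against 13869 in null GFP- cells and did not pass (limma adjusted p = 0.211). The gene that was higher, Bmper, an extracellular BMP modulator, read 8918 and 5748 in null GFP+ cells against 1425 in null GFP- cells, a log2 difference of 2.41 (SE 0.37, limma adjusted p = 0.0418). The progenitor surface genes Cd34 and Itgb1 did not pass, with 2112 and 1535 in null GFP+ cells against 3158 in null GFP- cells for Cd34, and 391 and 405 against 390 for Itgb1.

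Mural cells wrap small vessels and share part of their markers with adipose progenitors. Of 20 mural and smooth muscle genes tested, 2 were higher and 0 lower, with a median of 0.22. Rgs4, a regulator of G protein signalling in pericytes, read 511 and 511 in null GFP+ cells against 180 in null GFP- cells, a log2 difference of 2.26 (SE 0.27, limma adjusted p = 0.0241). Notch3, the Notch receptor of mural cells, read 462 and 545 in null GFP+ cells against 174 in null GFP- cells. The contractile gene Acta2 had 3388 and 6755 in null GFP+ cells and 6048 in null GFP- cells, so the null GFP- array lay between the others. Cspg4, the NG2 proteoglycan, read 178 and 161 in null GFP+ cells and 174 in null GFP- cells.

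PDGF recruits mural and progenitor cells to vessels, and VEGF drives vessel growth. Pdgfb, the ligand made by endothelium, read 499 and 452 in null GFP+ cells against 165 in null GFP- cells, a log2 difference of 2.40 (SE 0.28, limma adjusted p = 0.0228). Its receptor Pdgfrb read 1188 and 1726 in null GFP+ cells against 817 in null GFP- cells, 0.88 higher on the log2 scale without passing (SE 0.35, limma adjusted p = 0.345). Of 7 PDGF genes tested, 1 was higher and 0 lower. Vegfa, the main VEGF ligand, read 1514 and 1336 in null GFP+ cells and 1139 in null GFP- cells, a log2 difference of 0.35 (SE 0.28, limma adjusted p = 0.692). Of 14 VEGF and angiopoietin genes tested, 2 were higher, Flt1 and Angptl4, and 0 lower. Rxra, the partner of PPARγ, was close to background, with 171 and 164 in null GFP+ cells and 134 in null GFP- cells.

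An FGF ligand and an FGF receptor were higher in null GFP+ cells. Fgf10, a growth factor that stimulates preadipocytes, read 5521 and 5549 in null GFP+ cells against 723 in null GFP- cells, a log2 difference of 3.11 (SE 0.27, limma adjusted p = 0.0152). Fgfr2, whose epithelial splice form is the receptor for Fgf10, read 2700 and 2650 in null GFP+ cells against 680 in null GFP- cells, a log2 difference of 2.14 (SE 0.27, limma adjusted p = 0.0276). The probes do not say which splice form was measured, and a dimmer Fgfr2 probe did not pass. Of 12 FGF genes tested, 2 were higher and 0 lower. Of 12 Notch genes tested, 2 were higher, Notch3 and the feedback inhibitor Nrarp, and 0 were lower, with a median of 1.07. On both null GFP+ arrays 10 of the 12 were above the null GFP- array, against 293 of 704 genes over all lists. For genes of mitochondrial fatty acid oxidation it was 14 of 16. The 704 genes include the leukocyte lists, with 10 of 101, which lowers their share. The like count over all 9975 genes was not made, so whether either list stands out is not known. Both differences subtract the same null GFP- array, so their signs are not independent. Nrarp read 240 and 261 in null GFP+ cells against 131 in null GFP- cells, at least 1.62-fold higher.

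For the lists of this paragraph, the shares over all genes were 1.30% higher and 2.64% lower. Whether such small counts differ from those shares was not tested. Of 28 TGF-β and BMP genes tested, 1 was higher, Bmper, and 2 were lower. Bmp7, a BMP ligand linked to brown fat, read 330 and 380 in null GFP+ cells against 1710 in null GFP- cells, a log2 difference of -2.63 (SE 0.29, limma adjusted p = 0.0208), and Tgfbi, a matrix protein induced by TGF-β, 3261 and 3588 against 11285. Outside the list, Bmp3, an antagonistic BMP, was at least 5.68-fold lower, with 116 and 115 in null GFP+ cells against 877 in null GFP- cells (limma adjusted p = 0.0109). Of 24 Wnt genes tested, 1 was lower, Sfrp4, and 0 were higher. Of 26 guidance genes tested, Robo4 was higher, and the semaphorin genes Sema3b and Sema4a were lower, with 559 and 431 for Sema3b in null GFP+ cells against 1998 in null GFP- cells, and 677 and 683 for Sema4a against 1981.

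**Figure D5:**
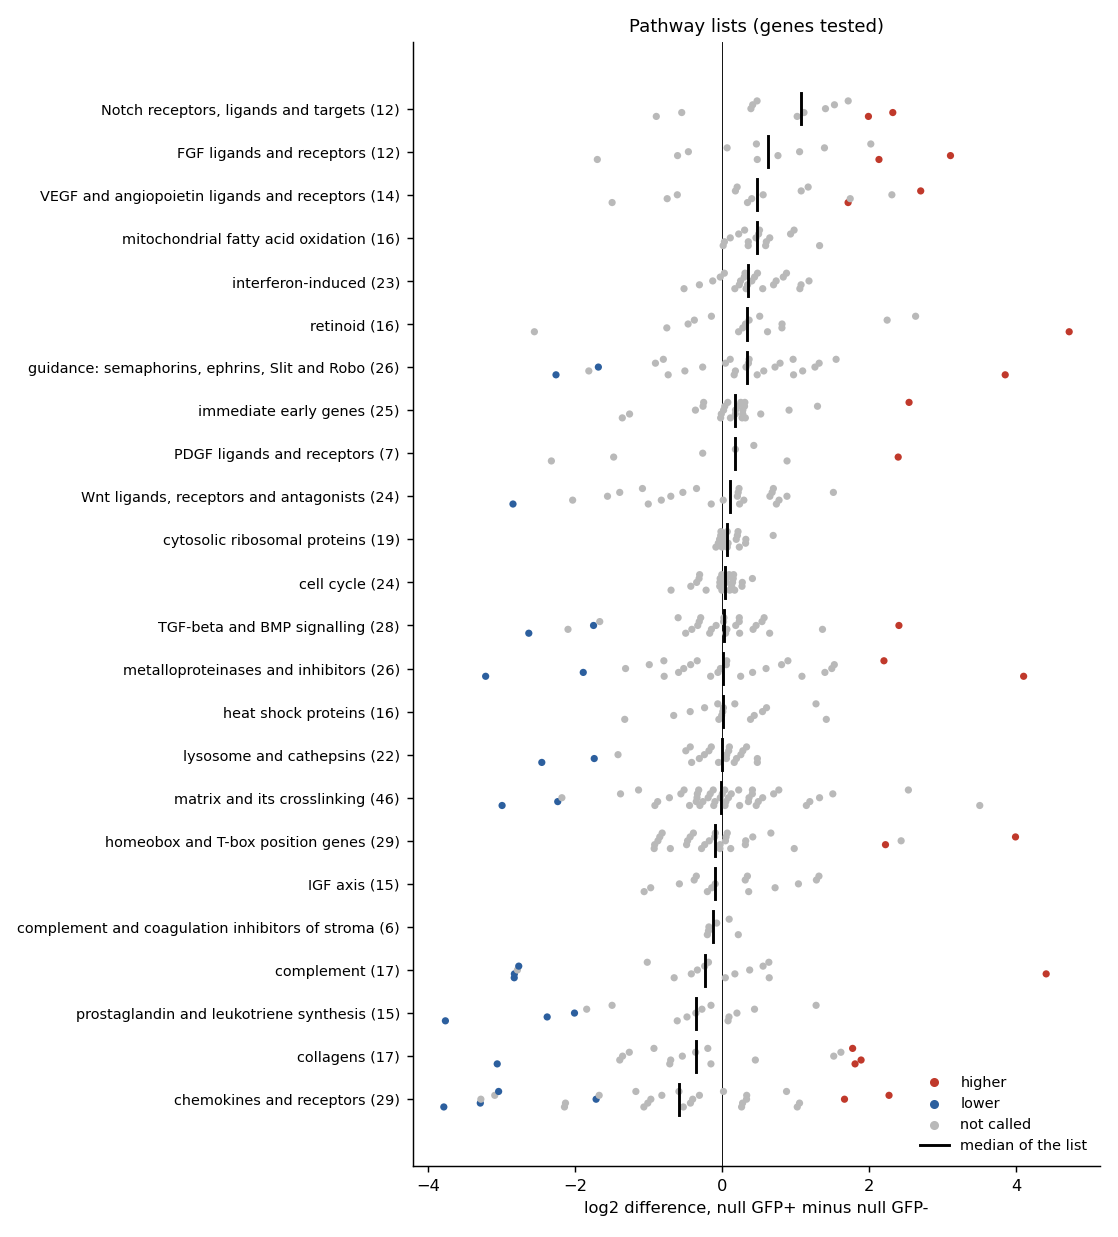
Log2 difference between null GFP+ and null GFP- cells for each tested gene of 24 pathway lists, ordered by the list median (black bar), with genes called higher in red, lower in blue and not called in grey. Notch genes have the highest median at 1.07 and chemokine genes the lowest at -0.59, and the ribosomal and cell cycle lists stay near 0.

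Of 17 collagen genes tested, 3 were higher and 1 lower, with a median log2 difference of -0.36. Col4a1 and Col4a2, the paired chains of type IV collagen, read 31355 and 29442, and 25045 and 24214, in null GFP+ cells against 8932 and 7089 in null GFP- cells. Their log2 differences were 1.78 and 1.81 (SE 0.27 each, limma adjusted p = 0.0424 and 0.0405). Col18a1, the source of endostatin, read 11446 and 13025 in null GFP+ cells against 3357 in null GFP- cells. Col4a5, another type IV chain and chosen after its values were seen, read 1760 and 1379 in null GFP+ cells against 3939 in null GFP- cells and did not pass (limma adjusted p = 0.100). Endothelial, mural and fat cells all make type IV collagen. The summed intensity of the 26 endothelial genes was 38972 and 34909 in null GFP+ cells against 20919 in null GFP- cells, and that of the 32 adipocyte genes 102790 and 117710 against 55931, and their part in the collagen values was not tested. Col8a1, a short-chain collagen, was the collagen called lower, with 173 and 161 in null GFP+ cells against 711 in null GFP- cells. Of 46 other matrix genes tested, beside a share of 2.64% lower over all genes, 2 were lower and 0 higher. They were Fmod, the proteoglycan fibromodulin, with 152 and 202 in null GFP+ cells against 739 in null GFP- cells, and Comp, an oligomeric matrix protein of tendon and cartilage, at least 1.49-fold lower.

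Proteases and their inhibitors were called in both directions. Timp4, the metalloproteinase inhibitor of fat and heart, read 538 and 518 in null GFP+ cells against 104 in null GFP- cells, at least 3.42-fold higher (limma adjusted p = 0.0118). Adam12, a metalloproteinase of mesenchymal cells, read 699 and 875 in null GFP+ cells against 242 in null GFP- cells. Mmp9 and Adam8, proteases of leukocytes, were at least 3.40-fold and 1.43-fold lower, which made 2 higher and 2 lower of 26 tested. The shares over all genes were 1.30% higher and 2.64% lower. Of 22 lysosomal genes tested, Ctsg and Ctsc, a granule protease and the peptidase that activates such proteases, were lower and 0 were higher.

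Of 29 chemokine genes tested, 4 were lower, Ccl3, Ccl9, Pf4 and Ccl21a, and 2 higher, Cx3cl1 and Cxcl14. Ccl3, a macrophage inflammatory protein, was at least 4.27-fold lower, Ccl9 read 655 and 346 in null GFP+ cells against 3791 in null GFP- cells, and Pf4, made by platelets and macrophages, 207 and 162 against 826. Cx3cl1, the membrane-bound chemokine of endothelium, was at least 2.16-fold higher, with 307 and 364 in null GFP+ cells against 142 in null GFP- cells (limma adjusted p = 0.0301). Of 17 complement genes tested, the macrophage genes C1qa and C1qc and the properdin gene Cfp were lower, whereas Hc, which encodes C5, was higher. Cfp read 1135 and 841 in null GFP+ cells against 6365 in null GFP- cells, and Hc 590 and 1343 against 127, at least 5.77-fold higher (limma adjusted p = 0.0298). Of 15 genes of prostaglandin and leukotriene synthesis tested, 3 were lower and 0 higher. They were the lipoxygenases Alox5 and Alox15 and Alox5ap, the protein that presents arachidonate to Alox5, which read 427 and 257 in null GFP+ cells against 3288 in null GFP- cells.

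Of a list of 29 homeobox and T-box genes tested, 2 were higher, Alx4 and Meox1, and 0 lower, with a median log2 difference of -0.09. The share higher over all genes was 1.30%. Outside the list, Gsc, the homeobox gene goosecoid, read 3063 and 2227 in null GFP+ cells against 242 in null GFP- cells, a log2 difference of 4.08 (SE 0.33, limma adjusted p = 0.0138). Alx4, an aristaless-type homeobox gene of limb and face mesenchyme, read 1141 and 1636 in null GFP+ cells against 172 in null GFP- cells, a log2 difference of 3.99 (SE 0.35, limma adjusted p = 0.0151). Meox1, a homeobox gene of the somites, read 388 and 382 in null GFP+ cells against 155 in null GFP- cells. Msc, the bHLH repressor musculin, read 1086 and 1115 in null GFP+ cells against 222 in null GFP- cells, and Egr2, an early response factor that promotes fat cell formation in cultured cells, 6229 and 6203 against 1142. Of 25 immediate early genes tested, which respond to cell dissociation, 1 was higher, Egr2, and 0 lower.

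Outside these groups, Pon1, an esterase that circulates on lipoproteins, read 1574 and 5514 in null GFP+ cells against 115 in null GFP- cells, at least 19.1-fold higher (limma adjusted p = 0.0230). Cyp2e1, a cytochrome P450 that oxidizes ethanol, read 859 and 1334 in null GFP+ cells against 133 in null GFP- cells, at least 6.94-fold higher (limma adjusted p = 0.0146). Lrrc15, a membrane protein of fibroblasts, read 1858 and 5316 in null GFP+ cells against 252 in null GFP- cells, and Map2, a microtubule-associated protein of neurons, 578 and 1346 against 147, where a second, dim Map2 probe did not pass. For these 4 genes array 3 was the higher null GFP+ array, as for 25 of the 32 fat cell genes.

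Among other cell types, of 10 mesothelial and epithelial genes tested, 3 were lower, Cldn3, Slpi and Upk3b, with 119 and 139 for Cldn3 in null GFP+ cells against 452 in null GFP- cells. Single genes were called lower among 13 skeletal muscle genes (Tnni2), 7 Schwann cell and nerve genes (Gfra3) and 4 erythroid and platelet genes (Pf4). The share lower over all genes was 2.64%. Of 19 cytosolic ribosomal protein genes, 24 cell cycle genes, 23 interferon-induced genes, 16 heat shock genes, 15 genes of the IGF axis, 16 of mitochondrial fatty acid oxidation and 9 housekeeping genes, 0 were called in either direction, with list medians from -0.09 to 0.48. At an unadjusted p under 0.05 there were 1 ribosomal, 0 cell cycle, 4 interferon-induced, 3 heat shock, 3 IGF, 2 fatty acid oxidation and 0 housekeeping genes. Of 16 retinoid genes tested 1 was higher, Rbp7, and 0 lower. At least 1 dimmer probe each of Adam8, Alox5, Cd86, Col18a1, Ctsc, Cxcl14, Fgfr2, Fmod and Sema3b had the sign of the brightest probe and did not pass, while another dimmer probe of Cd86, Ctsc and Sema3b passed.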

How the data were processed

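RNA of flow-sorted stromal vascular cells was hybridised to Illumina Mouse-6 V2 BeadChips, and 3 arrays were compared here. The authors deposited an intensity for each probe, with array distributions already alike, and a detection p-value for each probe and array in a separate table. Another 4 signal columns match no label and were not used. No source used here names the authors' normalization. From the intensities, background was corrected by normexp with parameters from the detection p-values (mean 108, SD 13.6), 16 was added as offset, and quantile normalization followed on the log2 scale in limma 3.58.1 (R 4.3.3). Fits used 4 arrays in 3 groups, with 1 residual and 4.03 prior degrees of freedom, and Benjamini-Hochberg adjustment over 17379 probes. The brightest tested probe stood for its gene. Of 45281 probes, 34885 had 1 gene symbol, 18 several and 10378 none in the platform annotation, and 34807 symbols matched RefSeq (GRCm38.p6). "At least N-fold" was computed on the deposited intensities, without background correction, and log2 differences and tests on the corrected values. The code of the fit was run on simulated data with a common spread for all probes and arrays, taken from the null GFP+ arrays. That run cannot tell whether the null GFP- array varies like them. Named were genes discussed in the study, the 15 largest rises and falls, and up to 4 genes a list by adjusted p, or the 2 brightest where none passed. Members, lists and rule were chosen with earlier results of these data known. Tables were handled in Python 3.11.15 with pandas 2.3.3 and drawn with matplotlib 3.10.9.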

Additional observations from a re-analysis of the deposited data

How the results depend on the processing

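Precision is limited by 1 null GFP- array and 2 null GFP+ arrays, and dim probes have only bounds. No paired analysis was possible because the groups compared share fewer than 2 numbers. Without a null GFP+ array limma has no residual degree of freedom and gave no counts. Against 130 genes higher and 263 lower, no background correction called 204 higher, normexp without detection p-values and offset 50 called 231 and 402, the mean of all probes of a gene 220 and 406, and a variance trend 227 higher. No filter, and likewise the methods' t-test with Benjamini-Hochberg adjustment, called 0 in either direction, where the smallest adjusted p was 0.0621 with no filter and 0.617 with the t-test, and 1179 and 373 genes were higher and 1446 and 444 lower at an unadjusted p under 0.05. The study's own rule, a more than 2-fold change at p under 0.05, names no Benjamini-Hochberg adjustment. The filter came after normalization and leaves the log2 difference of a probe unchanged. All called genes therefore kept their sign with no filter, which is no support for the calls. Against 377 genes over 2-fold higher and 594 lower on both null GFP+ arrays, no background correction gave 192 and 320, and normexp without detection p-values 233 and 391. Single arrays gave 625 higher and 740 lower without null GFP+ array 1, and 554 and 775 without array 3. Pparg had a log2 difference of 4.55 with an adjusted p of 0.0621 with no filter, 3.75 with no background correction, 4.15 with the mean of probes, and 4.35 to 4.74 without either null GFP+ array. With cyclic loess, Fasn and Itgb1, which passed under no setting, had log2 differences of -0.020 and -0.0142.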

Other observations

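The null GFP+ arrays disagreed on some genes that passed no test, and these were chosen after their values were seen. Ngfr, the low-affinity nerve growth factor receptor, read 439 on null GFP+ array 1 and 5534 on array 3, against 374 in null GFP- cells. Tenm4, a teneurin, read 198 and 745 in null GFP+ cells against 146 in null GFP- cells, and Orm1, an acute phase protein, 271 and 1150 against 125. In the other direction Gsn, the actin-severing gelsolin, read 29657 on array 1 and 7583 on array 3, against 6128 in null GFP- cells. Leukocyte genes were among those higher on array 1, with 338 and 158 for the Fc receptor chain gene Fcer1g in null GFP+ cells against 794 in null GFP- cells, and 312 and 156 for the chemokine gene Ccl4 against 1100. Over all 9975 genes, 258 were over 2-fold higher and 136 over 2-fold lower on array 3 than on array 1.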
